A study of Mus musculus with 4 samples.

Results

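The BCL2 family decides whether a cell keeps the outer membrane of its mitochondria intact. Pro-survival members (Bcl2, Bcl2l1, Bcl2l2 and Mcl1) hold their pro-death relatives in check, the effectors (Bak1 and Bok) can open the membrane and release cytochrome c, and the BH3-only members (Bid, Bad, Bcl2l11 and Bmf) carry stress signals to both. Embryonic stem cells are known for a low threshold to mitochondrial cell death. The 10 genes described here are the listed members of that family that are not taken as targets of p53, chosen by name from a table of 45706 mouse genes and found there by Ensembl identifier, all 10 of 10.

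RNA was sequenced from V6.5 mouse embryonic stem cells, with 2 libraries at 0 h (genotype KLF WT) and 2 at 24 h (genotype KLF KO), lettered A and B in each group. The study's design text calls them biological replicates. The cells had received a lentiviral vector in which a TRE3G promoter, switched on by doxycycline, drives Cas9 with GFP, while PGK drives puromycin resistance and the rtTA activator. Its guide RNAs were aimed at KLF4 alone or at KLF2, KLF4 and KLF5 together, and clones were picked by hand. The labels do not say which guides or clone each library came from. The titles call the 0 h cells WT ESCs and the 24 h cells KLF4 KO, but all 4 titles also begin with TKO, which they do not spell out. All 4 cultures grew on irradiated feeders with 15% serum, LIF at 1000 U/ml and the 2i pair of inhibitors, against MEK at 1 µM and against GSK3 at 3 µM. Only the 24 h cells received doxycycline, and effects of doxycycline itself, of cutting by Cas9, of KLF loss and of culture time cannot be told apart.

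Libraries held 46031578 to 52412844 counts, and a count of 0 allows up to 0.0652 CPM (3 counts of the total, counting error only; CPM are library-scaled counts, with TMM factors applied). The 8 stem cell markers, Pou5f1 and Sox2 among them, summed to 3901 to 4461 CPM. At 24 h 3 of the 8 were called lower, where 2.65% of all genes tested were. Sox2 was not one of these 3, at 531.8 and 496.3 CPM at 0 h and 540.1 and 542.7 at 24 h. Pou5f1 was at 845.2 and 689.1 CPM at 0 h and 527.4 and 529.2 at 24 h. For Zfp42 the values were 153.6 and 145.1, then 109.5 and 109.6, and for Utf1 129.8 and 83.31, then 56.15 and 55.31. Nanog and Tdgf1 also had lower values in both 24 h libraries, while the times overlapped in Esrrb and Dppa5a. Feeder fibroblast markers summed to 103.8 to 146.3 CPM, with Lum at 0 counts in 3 libraries and 1 of 6 tested, Pdgfrb, called lower (13.58 and 10.55 CPM, then 6.038 and 5.855), and those of primitive endoderm and trophoblast to at most 18.28 CPM. The mRNAs of Klf2, Klf4 and Klf5 were not past the test at 24 h (adjusted p of 0.58, 0.223 and 0.0567 in edgeR's quasi-likelihood test), which says nothing of the proteins. Klf5 (log2 fold change -0.72) was called lower by DESeq2 (adjusted p = 0.00109), with the replicate block in edgeR (1.34e-05) and with edgeR after correction for GC content and length (0.0111). Klf4 was called lower in the last of these (adjusted p = 0.0395). The 0 h replicate A stood apart. Over 17927 genes, which are not independent replicates, its deviation from the libraries' mean had a Pearson correlation of 0.477 with GC content, and the other libraries had -0.223 to -0.162.

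The element that all 10 proteins share is the BH3 motif, a short helix through which pro-death members fit into the groove of pro-survival ones. A search of the coding sequences (GENCODE M21, GRCm38, principal transcripts) for leucine or methionine, any 3 residues, then glycine, alanine or serine, then aspartate and 1 of aspartate, glutamate, glycine or glutamine found exactly 1 match in each. That form was widened so as to admit known departures from the core. The 39 coding bases around each match are given 5′ to 3′, with the codons of the first residue, of the small residue and of the aspartate in capitals.

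Bcl2: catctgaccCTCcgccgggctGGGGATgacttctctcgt
Bcl2l1: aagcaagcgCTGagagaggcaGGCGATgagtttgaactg
Bcl2l2: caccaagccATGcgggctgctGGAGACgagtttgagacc
Mcl1: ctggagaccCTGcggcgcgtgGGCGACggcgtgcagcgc
Bak1: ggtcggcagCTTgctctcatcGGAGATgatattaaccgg
Bok: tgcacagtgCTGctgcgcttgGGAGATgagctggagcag
Bid: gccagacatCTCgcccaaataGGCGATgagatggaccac
Bad: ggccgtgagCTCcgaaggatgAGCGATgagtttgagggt
Bcl2l11: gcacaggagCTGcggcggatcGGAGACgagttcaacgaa
Bmf: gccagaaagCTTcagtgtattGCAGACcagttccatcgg

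The 4 pro-survival members and both effectors have glycine at the small residue, as do Bid and Bcl2l11, while Bad has serine and Bmf alanine there. Bcl2l2 starts the motif with methionine and the other 9 with leucine. In Mcl1 (chr3:95659427-95659465, exon 1 of 3) the motif begins at residue 194 of 331, and in Bak1 (chr17:27022528-27022566, exon 4 of 6) at residue 76 of 209. In Bcl2l11, which encodes BIM, it lies in exon 3 of 4 (chr2:128147141-128147179), and in Bmf in exon 4 of 5 (chr2:118545097-118545135). The counts are per gene, so transcripts of one gene that keep or skip such an exon cannot be told apart.

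Levels of different genes are compared per kilobase of exon (RPKM, from the TMM-scaled CPM and the union of annotated exons). At 0 h Mcl1 was the most abundant of the 10, at 158.0 and 156.5 RPKM in replicates A and B, and it lay above 98.5% of the 17927 tested genes that have an exon length. Bak1 came next at 78.03 and 60.18 RPKM, above 95.4% of genes. Bcl2l1, which encodes BCL-XL (18.19 and 13.57 RPKM), and Bid (15.99 and 14.80) followed and did not differ beyond their spread. Bad (7.442 and 5.727) and Bcl2l2, which encodes BCL-W (4.993 and 5.188), came after them, with ranges that did not touch.

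The lowest group at 0 h was Bmf at 2.812 ± 0.488, Bcl2l11 at 2.625 ± 0.233 and Bok at 2.376 ± 0.545 RPKM (SD, n = 2), whose ranges overlapped. Bcl2, the founding member of the family, was nearly silent, with 26 and 27 counts at 0 h and 33 and 22 at 24 h, or 0.0584 ± 0.00321 RPKM at 0 h. Mcl1 and Bcl2 are therefore at opposite ends of the same functional class, at the 98.5th and 2.99th percentile.

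At 24 h the order was the same except that Bid (15.86 and 15.36 RPKM) stood above Bcl2l1 (11.72 and 11.15), with no overlap between them. Mcl1 was at 181.8 and 183.6 RPKM, Bak1 at 52.40 and 49.95, and Bcl2 at 0.07253 and 0.05134. Bad (5.728 and 5.422) and Bcl2l2 (5.602 and 5.249) overlapped at this time. Bmf (4.145 and 3.739) now stood clear of Bcl2l11 (2.517 and 2.608), which in turn stood clear of Bok (1.674 and 1.684).

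**Figure D1:**
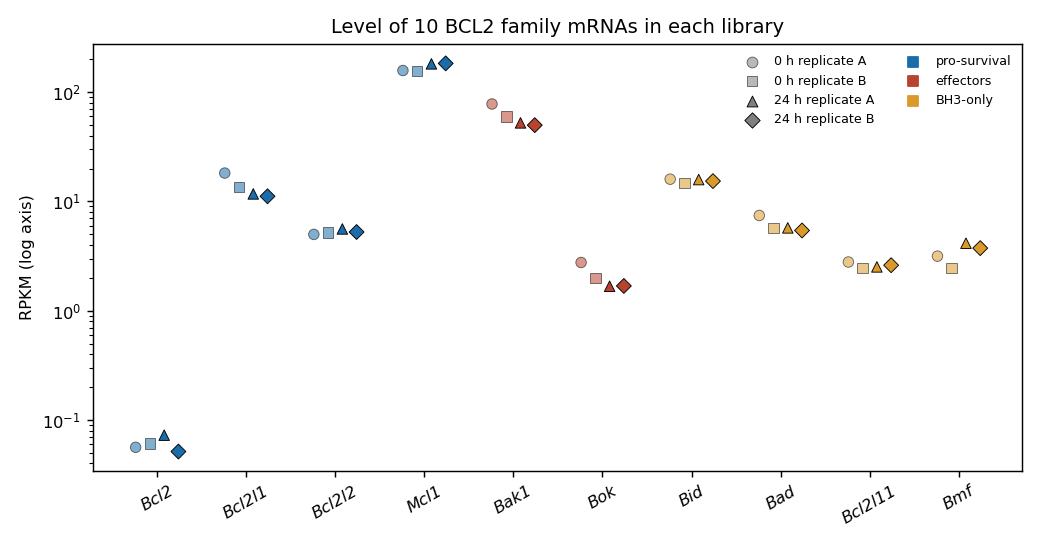
RPKM (log axis) of each of the 10 members in the 4 libraries, with pale symbols for 0 h, full symbols for 24 h and colours for the functional class. Mcl1 and Bak1 lie above all others in every library, and Bcl2 lies below 0.1 RPKM.

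None of the 10 members passed the test of 24 h against 0 h (edgeR's quasi-likelihood test, Benjamini-Hochberg over 18005 genes, threshold 0.05). That is 0 of 10, where 6.8% of all genes tested were called (4.15% higher and 2.65% lower). Before adjustment, 4 members had a p under 0.05. Mcl1 and Bmf had higher values at 24 h, and Bcl2l1 and Bak1 lower ones. DESeq2's Wald test called 1 of the 10 (Bcl2l1, lower), where it called 10.9% of the genes it tested. From limma voom came 0 of the 10, where 6.03% of all genes tested were called. The libraries of the 2 times did not overlap in CPM for 6 of the 10, a share close to the 58.8% of all tested genes. All 10 passed the filter on low counts, and the median log2 fold change of the 10 was -0.01, as it was over all genes tested. In RNA from whole cultures, fewer cells that express a gene and less of its RNA per cell cannot be told apart.

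Among the pro-survival members, Mcl1 (chromosome 3, 95658788 to 95663176) was at 539.9 and 535.0 CPM at 0 h and 621.2 and 627.7 at 24 h. Replicates lay close together at both times, and both 24 h libraries were above both at 0 h. The log2 fold change was 0.22 (SE 0.09, 95% interval 0.01 to 0.43, adjusted p = 0.187), a ratio of 1.16. MCL-1 is a short-lived protein that stem cells need for survival.

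Bcl2l1 (chromosome 2, 152780668 to 152831728) was at 83.44 and 62.24 CPM at 0 h and 53.76 and 51.14 at 24 h. Both 24 h libraries were below both at 0 h, and the gap between the 0 h replicates was wider than that from 0 h replicate B to 24 h replicate A. The log2 fold change was -0.47 (SE 0.15, 95% interval -0.83 to -0.12, adjusted p = 0.114). BCL-XL binds BAK directly and keeps it inactive. Leaving out 0 h replicate A moved this to -0.25, and leaving out 0 h replicate B to -0.67.

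Bcl2l2 was at 22.28 and 23.15 CPM at 0 h and 25.00 and 23.42 at 24 h, a log2 fold change of 0.09 with an interval of -0.20 to 0.38. Its 24 h libraries were above those of 0 h by less than they differed from each other. Its exons share 13.3% of their bases with Gm20521 on the same strand, which makes its counts uncertain. For Bcl2 the interval of the ratio ran from 0.574 to 1.97, so both a rise and a fall within those bounds remained possible at its low counts.

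Of the effectors, Bak1 (chromosome 17, 27019810 to 27029009) was at 187.8 and 144.8 CPM at 0 h and 126.1 and 120.2 at 24 h. The 2 times did not overlap, and 0 h replicate A was the highest library. The log2 fold change was -0.43 (SE 0.14, 95% interval -0.76 to -0.11, adjusted p = 0.113), the smallest p of the 10. Leaving out 0 h replicate A gave -0.23 and leaving out 0 h replicate B gave -0.61. Exons of Ggnbp1 on the other strand overlap Bak1, so its counts are uncertain if the counting ignored strand.

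Bok (chromosome 1, 93685660 to 93695764), an effector that is kept low in many cells by rapid turnover of its protein, was at 5.080 and 3.662 CPM at 0 h and 3.079 and 3.099 at 24 h. The log2 fold change was -0.50 (SE 0.22, 95% interval -1.01 to 0.01, adjusted p = 0.203). The 2 libraries at 24 h were nearly equal, while 0 h replicate A was far above B. Leaving out 0 h replicate A gave -0.25 for Bok, and leaving out 0 h replicate B gave -0.72. Bok had the most negative log2 fold change of the 10, with an interval that included 0.

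None of the 4 BH3-only members passed edgeR's test, and differences between them were not tested. Bmf (chromosome 2, 118528757 to 118549687), which is tethered to the cytoskeleton through dynein light chain, was at 16.58 and 12.96 CPM at 0 h and 21.78 and 19.64 at 24 h. Both 24 h libraries were above both at 0 h, although 0 h replicate A was also above B. The log2 fold change was 0.49 (SE 0.16, 95% interval 0.11 to 0.87, adjusted p = 0.121). Leaving out 0 h replicate A gave 0.68, and leaving out 0 h replicate B gave 0.32.

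Bcl2l11, whose product BIM binds all the pro-survival proteins, was at 22.40 and 19.75 CPM at 0 h and 20.21 and 20.94 at 24 h. The times overlapped, and the interval of its log2 fold change was -0.34 to 0.27. Bid, which caspase 8 cleaves to an active form, was at 56.77 and 52.55 CPM at 0 h and 56.31 and 54.51 at 24 h, with an interval of -0.23 to 0.27. For these 2 genes a change beyond about those bounds lay outside the 95% interval, which does not show that the levels were equal. Bad, which survival kinases inactivate by phosphorylation, was at 19.04 and 14.65 CPM at 0 h and 14.65 and 13.87 at 24 h, a log2 fold change of -0.24 (interval -0.63 to 0.15). For Bad, leaving out 0 h replicate A gave -0.04 and leaving out 0 h replicate B gave -0.42. Exons of Bid overlap those of Bcl2l13, those of Bad overlap Gpr137 and those of Bcl2 an antisense gene, in each case on the other strand, so these counts are uncertain too.

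The 0 h replicates differed most in members of high GC content. In Bok (GC content 61.0%), Bcl2l1 (55.9%), Bad (57.1%), Bak1 (57.1%) and Bmf (53.7%), 0 h replicate A was above B by 0.47, 0.42, 0.38, 0.38 and 0.36 on the log2 scale. In Bcl2l11 (48.0%), Bid (51.3%), Mcl1 (48.7%), Bcl2l2 (53.1%) and Bcl2 (46.3%) the difference was 0.18, 0.11, 0.01, -0.06 and -0.11. At 24 h the difference between replicates was at most 0.15, except in Bcl2 (0.50, from 33 and 22 counts). Summed feeder markers were also highest in 0 h replicate A (146.3 CPM, against 103.8 in B and 111.3 and 110.2 at 24 h), and their part in these differences was not tested.

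**Figure D2:**
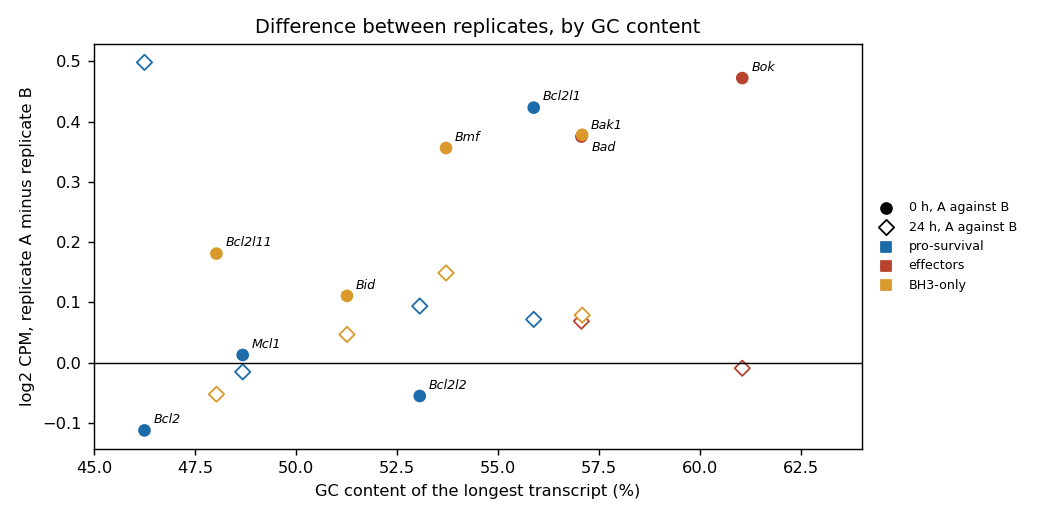
Difference in log2 CPM between replicates A and B against the GC content of each member's longest transcript, filled for 0 h and open for 24 h. The 5 members with the largest 0 h differences (0.36 to 0.47) all have a GC content of 53.7% or more.

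When each library's trend on GC content and length was taken out, 4 of the 10 members passed. Mcl1 (log2 fold change 0.17, adjusted p = 0.0484) and Bmf (0.55, adjusted p = 0.00604) were called higher, where 11.3% of all genes were. Bcl2l1 (-0.34, adjusted p = 0.0113) and Bak1 (-0.28, adjusted p = 0.0111) were called lower, where 12.9% of all genes were. These are the 4 that had an unadjusted p under 0.05 before the correction. Bok went to -0.19 (interval -0.54 to 0.16) and Bad to -0.09 (interval -0.30 to 0.12), from -0.50 and -0.24 without the correction.

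Over the 10 alternatives that kept all 4 libraries, the adjusted p ranged from 0.00293 to 0.131 for Bcl2l1 (5 under the threshold), from 0.0041 to 0.131 for Bak1 (4), from 0.000722 to 0.12 for Bmf (3) and from 0.0426 to 0.331 for Mcl1 (2). The sign of each of these 4 log2 fold changes was the same in all 14 alternatives, the 4 that leave out a library included. With either 24 h library left out, 0 of the 10 passed.

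**Figure D3:**
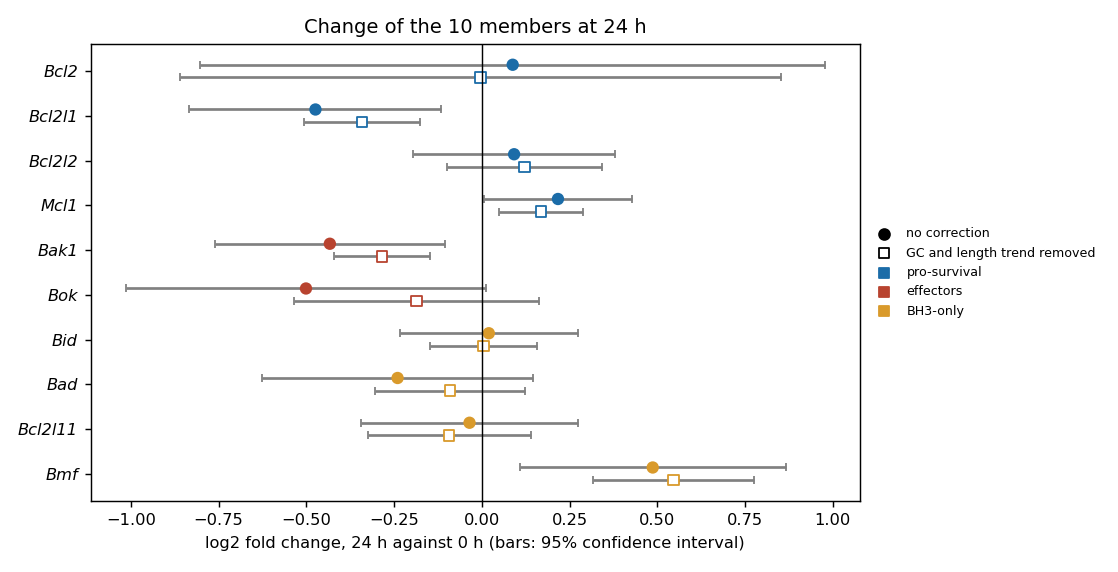
Log2 fold change of each member at 24 h against 0 h with its 95% confidence interval, as fitted to the deposited counts (filled) and with the trend on GC and length taken out (open). The intervals of Mcl1, Bmf, Bcl2l1 and Bak1 stay on one side of 0 in both fits, and those of the other 6 cross it.

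Set against each other within a library, the 4 pro-survival mRNAs made up 62.2% and 66.7% of the summed RPKM of the 10 at 0 h, and 70.8% and 71.8% at 24 h. Both 24 h libraries were above both at 0 h, by more than the gap between replicates at 24 h and by about as much as the gap at 0 h. After the GC and length correction the shares were 65.6% and 65.6% at 0 h, and 69.9% and 70.6% at 24 h. The shares also depend on the length used. With the longest annotated transcript in place of the exon union they were 60.9% and 64.9%, then 68.4% and 69.4%. These sums are a description of chosen genes and carry no test.

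On both sides of the balance the sums did not overlap between the times, which was not tested. The pro-survival sum was 181.2 and 175.3 RPKM at 0 h and 199.1 and 200.1 at 24 h. Without Mcl1 that sum was lower at 24 h, at 23.24 and 18.82, then 17.4 and 16.45. The pro-death sum was 110.2 and 87.63, then 82.33 and 78.76. Its 0 h replicates lay further apart than 0 h replicate B and 24 h replicate A. Mcl1 held 87.2% and 89.3% of the pro-survival sum at 0 h and 91.3% and 91.8% at 24 h, and without it the other 3 pro-survival members were at 17.4% and 17.7%, then 17.4% and 17.3%, with both Bcl2l1 and Bak1 at lower values at 24 h. On the pro-death side Bak1 held 70.8% and 68.7% of the sum at 0 h and 63.6% and 63.4% at 24 h. The sum of the 4 BH3-only mRNAs was 29.38 and 25.46 RPKM at 0 h and 28.25 and 27.13 at 24 h, which overlapped.

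Ratios between single members show which of them kept step. In RPKM, the 0 h libraries had 2.02 and 2.60 times as much Mcl1 as Bak1, and the 24 h libraries 3.47 and 3.68 times. For Mcl1 over Bcl2l1 the ratios were 8.68 and 11.5, then 15.5 and 16.5. For Bak1 over Bcl2l1, effector over inhibitor, they were 4.29 and 4.43, then 4.47 and 4.48, so this ratio differed little between libraries, in 2 genes of similar GC content. For Bmf over Bcl2l11 they were 1.13 and 1.00, then 1.65 and 1.43. With the trend removed, the log2 ratio of Mcl1 to Bak1 was higher by 0.45 at 24 h, against 0.64 without the correction.

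**Figure D4:**
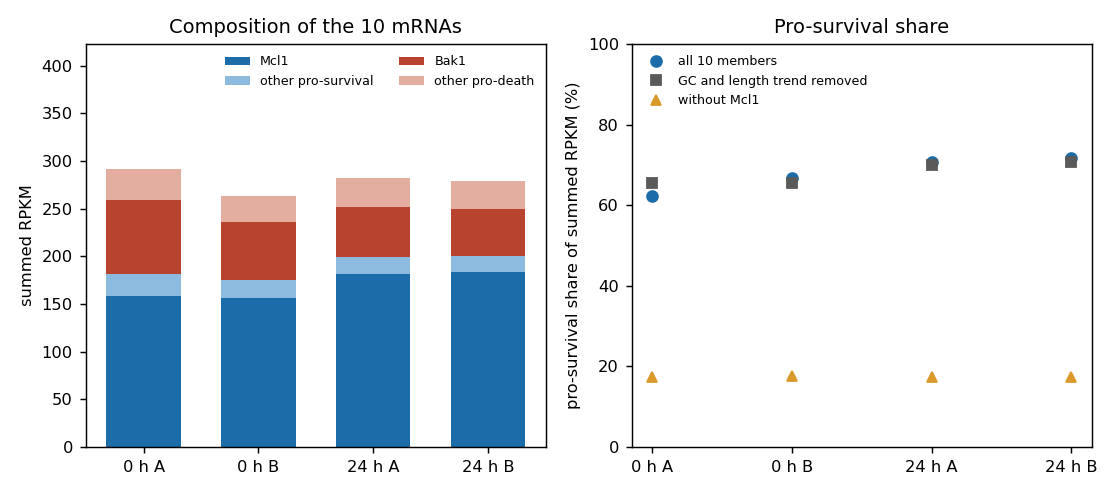
Left, summed RPKM of the 10 members in each library, split into Mcl1, the other pro-survival members, Bak1 and the other pro-death members; right, the pro-survival share in percent, for all 10 members, for all 10 after the GC and length correction, and without Mcl1. The share of all 10 goes from 62.2% and 66.7% at 0 h to 70.8% and 71.8% at 24 h, while the share without Mcl1 stays between 17.3% and 17.7%.

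Of the 3 relatives that p53 is known to induce, 1 was called. For this list and those that follow, the share called over all genes tested was 6.8%, and 24.2% with the trend removed. With the replicate block that share was 18.1%. Pmaip1, which encodes NOXA, a BH3-only protein that binds MCL-1, rose from 23.90 and 26.46 CPM to 37.31 and 39.79 (log2 fold change 0.62, SE 0.12, adjusted p = 0.0322). Bbc3, which encodes PUMA, was at 100.9 and 47.69 CPM at 0 h and 46.91 and 43.40 at 24 h (adjusted p = 0.193), so that 0 h replicate A alone was high. With the replicate block in edgeR Bbc3 was called lower (adjusted p = 0.000417). The effector gene Bax was at 226.2 and 181.9 CPM, then 184.9 and 174.6 (adjusted p = 0.401). Its exons share 12.2% of their bases with Gm45808 on the same strand, so its counts are uncertain. Bbc3 and Bax have the highest GC contents of the family genes followed here, 65.2% and 63.5%, and with the trend removed their log2 fold changes were -0.17 and 0.23, neither of them called.

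Of 12 other genes with BCL2 homology, 8 passed the filter on low counts and 0 were called, with a median log2 fold change of 0.01. Bnip3, a mitophagy receptor, was at 28.23 and 41.52 CPM at 0 h and 19.82 and 24.25 at 24 h (adjusted p = 0.102), and its relative Bnip3l at 44.91 and 64.26, then 40.09 and 40.80 (adjusted p = 0.174). With the trend removed both were called lower (adjusted p of 0.00173 and 0.00271), and DESeq2 called Bnip3 lower (0.0159). Both were also called lower with the replicate block in edgeR (adjusted p of 0.000799 and 0.0357). Bcl2l15 was at 1.917 and 2.037, then 3.019 and 3.013 CPM (adjusted p = 0.12), with 21% of its exon bases shared with Gm43064 on the same strand.

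Downstream of the mitochondrion, 1 of 12 genes of the apoptosome and the caspases was called, against 6.8% of all genes tested, and it was higher. Apaf1, which assembles with cytochrome c to activate caspase 9, rose from 83.63 and 84.81 CPM to 120.9 and 115.2 (log2 fold change 0.49, SE 0.10, adjusted p = 0.035). Cflar, an inhibitor of caspase 8, was at 3.973 and 3.642 CPM, then 5.374 and 5.749 (adjusted p = 0.11), and Casp6 at 13.54 and 13.23, then 16.36 and 16.88 (adjusted p = 0.187). The list's median was 0.15. With the trend removed Apaf1 was again called higher, and so was Pidd1, a scaffold for caspase 2 (adjusted p = 0.00898), where 11.3% of all genes were.

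The 7 inhibitors of apoptosis and their antagonists gave 0 calls (median -0.02). Htra2, a mitochondrial protease that antagonises XIAP, was at 45.19 and 34.11 CPM at 0 h and 27.95 and 26.65 at 24 h (adjusted p = 0.0893), and its exons overlap 2 genes on the other strand. DESeq2 called Htra2 lower (adjusted p = 0.0246), as did edgeR with the replicate block (0.00704). With the trend removed Htra2 (adjusted p = 0.0291) and Birc6, a large ubiquitin-conjugating member (0.0105), were called lower. The 10 mitochondrial partners and release factors also gave 0 calls (median -0.05). Vdac1, a channel of the outer membrane, was at 863.8 and 978.7 CPM, then 736.9 and 745.6 (adjusted p = 0.113), and was called lower with the trend removed (adjusted p = 0.00959). Endog, a mitochondrial nuclease, was at 14.17 and 5.987 CPM at 0 h and 5.333 and 4.915 at 24 h, so that 0 h replicate A alone was high. Endog was called lower by DESeq2 (adjusted p = 0.0254) and with the replicate block in edgeR (0.000165). Without the block it was not called in edgeR (adjusted p = 0.154), nor with the trend removed (0.158). Its log2 fold change was -0.98 in edgeR, and -0.225 without 0 h replicate A. Spout1 on the other strand overlaps 35.7% of its exon bases.

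Of 15 genes whose products act on the members, 0 were called, with a median of 0.08. Ppp3ca, the catalytic subunit of calcineurin, which dephosphorylates BAD, was at 56.59 and 65.98 CPM, then 81.81 and 85.46 (adjusted p = 0.0695). Ppp3ca was called higher by DESeq2 (adjusted p = 0.0348), with the replicate block in edgeR (0.0132) and with the trend removed (0.00796). Fbxw7, part of a ubiquitin ligase for MCL-1, was at 64.08 and 64.56, then 76.92 and 79.56 (adjusted p = 0.141). Dynll2, the dynein light chain that holds BMF, was at 204.3 and 196.0, then 231.3 and 235.5 (adjusted p = 0.198), and was called higher with the trend removed (adjusted p = 0.0171).

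The genes whose pattern was most like that of Bak1, the member with the smallest p, were Gpi1, Hexim2 and Tmem189. They were the nearest of 11310 genes with a mean of at least 5 CPM, by the root mean square difference in centred log2 CPM over the 4 libraries (0.00819, 0.00889 and 0.0124). With so few libraries the measure is coarse, since 1240 genes lay within 0.1 of Bak1.

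KLF4 binds GC-rich sites, and RefSeq promoter windows (GRCm38.p6, 250 bases before to 50 after a start) were searched for GGGNGTGG on both strands. All 10 members had at least 1 window, 16 in all. Of these windows 18.8% held a match, against 17.6% of all 32851 windows, which is no difference that 16 windows can show. The matches lay in 1 window each of Bcl2l1 (chr2:152830908-152830935, minus strand), Bcl2l11 (chr2:128125908-128125935, plus strand) and Bmf (chr2:118547616-118547643, minus strand), shown with the motif in capitals.

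Bcl2l1: ggaaaaacccGGGAGTGGtctttccgaa
Bcl2l11: gggggccgtgGGGGGTGGggcttacctt
Bmf: tgtgcaaggaGGGGGTGGagatgtgcag

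The genes with a match include 1 with lower values at 24 h, 1 with higher values and 1 whose times overlapped. A match is a description of letters in the window and says nothing of binding, which was not analysed here.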

How the data were processed

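The authors deposited raw read counts per Ensembl gene for 4 libraries (stranded mRNA kit, single 50 nt reads, per the labels' protocols). TopHat2, HTSeq, DESeq and mm10 are named per the submitters' processing notes, with no versions or roles. The sources used here give neither the annotation release nor the strand setting. GENCODE M21 supplied symbols, coordinates, GC content and exon lengths (GRCm38, the assembly mm10 names); 563 identifiers, with 0.107% of counts, had no match. Overlapping genes cannot be told apart where strand was ignored, nor where they share a strand.

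Genes were kept with filterByExpr (minimum count 10, minimum total 15), which left 18005, scaled by TMM and tested by quasi-likelihood F-tests in edgeR 4.0.16 (legacy mode, 2-sided, under R 4.3.3), Benjamini-Hochberg adjusted over all of them, with no replicate block. SE and 95% intervals were derived from the F statistic. The GC and length correction subtracted, per library, spline trends (5 degrees of freedom each) of log2 CPM through offsets. Other alternatives used DESeq2 1.42.0, limma 3.58.1, other scalings and filters, the replicate block, and each library left out. The test was tested on simulated data. With 2 libraries per group its precision rests on pooling over genes. Motifs were found with Biopython 1.88, and figures drawn with matplotlib 3.10.9.

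The members, lists, alternatives and the rule for named genes (all 10 members, the 3 p53-linked relatives, at most 3 of each list by p) were chosen with earlier results of these data known.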

Additional observations from a re-analysis of the deposited data

How the results depend on the processing

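The count of genes called among all genes was 1225, and 2589 with no filter, 1872 with DESeq2's Wald test, 3253 with the replicate block, 4361 with the GC and length trend removed and 5393 with both. Leaving out 1 library gave 506 to 9416, and with the trend also removed 6421 and 8252 when replicates A and B of 0 h were dropped, and 1273 and 979 when those of 24 h were. A fit without 1 library takes the spread from the other group, so its p-values say little of the group left with 1 library. The letters are not said to tie the times together, and same-letter deviations correlated at only 0.0616.

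Among the members, 0 were called higher and 0 lower. Called higher were 1 with the replicate block (Bmf), 2 with the trend removed and 2 with both. Called lower were 2 with no filter (Bcl2l1 and Bak1), 1 with DESeq2, 2 with the block, 2 with the trend removed and 2 with both. Of all genes tested, 9.71% were called in either direction with no filter and 10.9% with DESeq2. That share was 18.1% with the block, 24.2% with the trend removed and 30% with both. Leaving out 1 library gave 0 to 2 higher and 0 to 4 lower, and with the trend also removed 0 to 3 higher and 0 to 2 lower. Without 0 h replicate B the log2 fold changes of Bok and Bad were -0.72 and -0.42, against -0.25 and -0.04 without 0 h replicate A. The number of all genes called moved with the same settings, so these counts are no result about the members. The cause of these moves was not tested.

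The log2 fold changes that changed sign belong to Bcl2, Bid and Bcl2l11, none of them called. Bcl2 was at -0.00368 with the trend removed, -0.0185 with that and the block, and -0.204 to 0.299 with 1 library left out (-0.298 and -0.00845 with the trend also removed, without 24 h replicate A and 0 h replicate B). Bid ranged from -0.0389 to 0.0754 with 1 library left out (-0.0264 and -0.033 with the trend also removed, without 0 h replicate B and 24 h replicate A). Bcl2l11 ranged from -0.127 to 0.0572 (0.0291 with the trend also removed, without 0 h replicate A), and Bcl2l11 was at 0.0103 with upper quartile scaling and 0.0233 with library size only. Leaving out libraries after trend removal was chosen after seeing the data. Depth limits Bcl2 most, at 22 to 33 counts. Bok, at 145 to 257 counts, was the next lowest.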

Other observations

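The nuclear gene for cytochrome c itself, Cycs, had only 76 and 126 counts at 0 h and 93 and 109 at 24 h, or 1.502 and 2.592 CPM, then 1.872 and 2.329, although the protein is needed in every respiring cell. Its partner Apaf1 lay above 80 CPM in all 4 libraries. Cycs is known to have processed copies elsewhere in the genome, so its counts are uncertain.

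Some genes of the family that are known from other tissues were at or near 0, though Hrk was not. The 3 Bcl2a1 copies followed here, a blood cell group, had 0 counts in all 4 libraries, which allows up to 0.0652 CPM each. Of these, Bcl2a1b shares 49.1% of its exon bases with Gm29094 on the same strand, so its count is uncertain. Bcl2l10, known from oocytes, had 2 and 3 counts at 0 h and 6 and 11 at 24 h. Hrk, a BH3-only gene best known from neurons, was at 3.341 and 4.773 CPM at 0 h and 5.132 and 5.407 at 24 h, which was not past edgeR's test (adjusted p = 0.311), and Bik had 44 to 59 counts per library.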
